A study of Mus musculus with 12 samples.

Results

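Glycolysis enzymes and transcripts induced through the hypoxia-inducible factor HIF were examined as a set of 36 genes in mouse AML1-ETO cells with and without Tet2. The members were 16 glycolytic enzymes, 6 genes of glucose and lactate transport and regulation, HIF and its hydroxylases (3 genes) and 11 other hypoxia targets. A member was measured by the array row annotated with its symbol alone, and by the row with the highest mean over the 12 arrays where it had several. Of the 22180 genes that had such a row, 31 were members. Gpi1 and Eno1 had no row under their symbols, and Aldoa, Bnip3l and Ankrd37 had only rows shared with another gene, so that these 5 members were not analysed here. Adm, at a mean of 4.59, lay below the filter on low signal, which was set at a mean log2 value of 4.70 over the 12 arrays. This left 30 members tested among 16860 genes: 13 enzymes, 6 of transport and regulation, 3 of HIF and its hydroxylases and 8 other targets.

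The cells were Kit-enriched bone marrow cells from mice with floxed Tet2 alleles and a tamoxifen-activated Cre recombinase (Tet2fl/fl;CreER), transduced with retrovirus to express AML1-ETO, a fusion protein of acute myeloid leukaemia, together with GFP. They were replated 3 times in methylcellulose and then grown in suspension with SCF, IL-3 and IL-6. Tet2-/- cells had received 200 nM 4-OHT, the drug that activates Cre, for 2 passages (4 days), while Tet2fl/fl cells had received ethanol, and both carried the floxed alleles, CreER and AML1-ETO. The 12 arrays formed 4 groups of 3, which were compared: Tet2-/- and Tet2fl/fl cells at passage 10 after this treatment, and Tet2-/- and Tet2fl/fl cells at passage 2, with a passage every 2 days. RNA came from GFP+, CD11b-, Gr1-, CD16/32+ cells sorted from the cultures. Loss of Tet2 and exposure to 4-OHT and active Cre cannot be told apart in this design, and the labels do not say whether replicates 1 to 3 were separate cultures.

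Glycolysis converts glucose to pyruvate, and lactate dehydrogenase can turn pyruvate into lactate, which is exported from the cell. HIF is a transcription factor whose alpha subunit is hydroxylated by oxygen-dependent prolyl hydroxylases and then degraded, so that its targets, among them most glycolytic enzymes and the hydroxylase genes Egln1 and Egln3 themselves, are induced when oxygen is low. Haematopoietic stem cells are known for glycolytic metabolism in a bone marrow niche poor in oxygen, while the labels name no change of oxygen in these cultures.

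HIF binds DNA at a short core sequence, so the start regions of the members are shown for the genes on which the results below turn, together with Hif1a and with Tpi1, whose window held no match. The windows are from RefSeq (build GRCm38.p6) and run from 250 bases before to 50 after a gene's start, on the gene's own strand. Capitals mark the core ACGTG or GCGTG, or CACGT or CACGC where the core lies on the other strand, and CACGTG, the E-box of Myc, Max and Mxi1, contains ACGTG on both strands. Aldoc lies at chr11:78322823-78323122 (forward strand), Pgk1 at chrX:106186850-106187149 (forward strand), Tpi1 at chr6:124814109-124814408 (reverse strand), Pdk1 at chr2:71872974-71873273 (forward strand), Slc2a1 at chr4:119108495-119108794 (forward strand), Hif1a at chr12:73907617-73907916 (forward strand), Egln3 at chr12:54203825-54204124 (reverse strand) and Bnip3 at chr7:138909457-138909756 (reverse strand).
Aldoc: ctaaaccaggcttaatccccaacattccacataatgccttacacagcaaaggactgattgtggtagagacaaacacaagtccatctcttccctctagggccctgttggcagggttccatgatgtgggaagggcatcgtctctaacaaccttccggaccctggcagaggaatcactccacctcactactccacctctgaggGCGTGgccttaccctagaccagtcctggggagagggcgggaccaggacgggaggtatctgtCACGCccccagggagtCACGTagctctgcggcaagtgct
Pgk1: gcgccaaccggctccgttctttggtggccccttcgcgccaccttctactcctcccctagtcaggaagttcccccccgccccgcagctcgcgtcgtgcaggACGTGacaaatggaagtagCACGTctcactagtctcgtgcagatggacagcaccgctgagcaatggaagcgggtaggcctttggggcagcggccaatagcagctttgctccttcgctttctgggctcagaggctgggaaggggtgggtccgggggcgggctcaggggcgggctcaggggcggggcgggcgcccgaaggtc
Tpi1: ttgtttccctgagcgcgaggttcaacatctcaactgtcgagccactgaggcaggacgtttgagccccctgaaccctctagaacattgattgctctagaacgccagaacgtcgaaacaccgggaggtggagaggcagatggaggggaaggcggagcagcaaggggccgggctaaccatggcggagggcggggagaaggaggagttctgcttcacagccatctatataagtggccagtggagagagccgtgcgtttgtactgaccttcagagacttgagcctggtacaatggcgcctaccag
Pdk1: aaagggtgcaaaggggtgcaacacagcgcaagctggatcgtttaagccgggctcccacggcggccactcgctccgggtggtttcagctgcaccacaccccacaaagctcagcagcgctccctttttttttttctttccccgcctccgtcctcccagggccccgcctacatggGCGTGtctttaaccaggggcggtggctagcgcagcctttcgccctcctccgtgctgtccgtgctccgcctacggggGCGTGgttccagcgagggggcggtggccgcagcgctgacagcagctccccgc
Slc2a1: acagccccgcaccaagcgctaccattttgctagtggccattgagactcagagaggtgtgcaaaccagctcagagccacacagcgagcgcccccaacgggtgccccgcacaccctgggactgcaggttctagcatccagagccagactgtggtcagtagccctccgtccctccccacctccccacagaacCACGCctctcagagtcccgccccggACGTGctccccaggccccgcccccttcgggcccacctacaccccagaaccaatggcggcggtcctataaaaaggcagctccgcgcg
Hif1a: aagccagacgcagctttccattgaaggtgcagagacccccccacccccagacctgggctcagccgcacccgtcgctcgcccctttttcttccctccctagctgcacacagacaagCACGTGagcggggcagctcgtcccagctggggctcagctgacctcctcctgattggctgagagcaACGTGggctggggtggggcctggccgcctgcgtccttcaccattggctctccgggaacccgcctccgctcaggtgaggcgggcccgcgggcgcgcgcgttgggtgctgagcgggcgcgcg
Egln3: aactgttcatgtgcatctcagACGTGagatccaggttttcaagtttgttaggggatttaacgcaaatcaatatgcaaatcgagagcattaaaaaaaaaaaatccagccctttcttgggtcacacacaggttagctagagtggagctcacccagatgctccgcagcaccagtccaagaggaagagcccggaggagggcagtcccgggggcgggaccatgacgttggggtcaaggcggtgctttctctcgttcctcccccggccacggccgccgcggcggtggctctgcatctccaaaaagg
Bnip3: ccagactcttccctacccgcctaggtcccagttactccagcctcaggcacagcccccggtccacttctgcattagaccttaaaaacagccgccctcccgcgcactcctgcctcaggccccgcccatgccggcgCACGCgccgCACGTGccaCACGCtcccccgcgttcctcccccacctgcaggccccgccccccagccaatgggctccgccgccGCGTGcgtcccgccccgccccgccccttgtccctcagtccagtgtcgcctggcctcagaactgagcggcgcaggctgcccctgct

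The printed window of Bnip3 held 5 core matches, those of Aldoc and Hif1a 3 each, those of Pgk1, Pdk1 and Slc2a1 2 each and that of Egln3 1. Aldoc and Pdk1 each had a further window at another start, not printed, with 1 and 0 core matches. RefSeq gave 51 windows for 33 of the 36 members. No entry was found for Slc2a3, Ndrg1 and Bnip3l. A core match was present in 78.4% of the members' windows, against 43.8% of all 32851 windows of the same length. The A form ACGTG was present in 54.9% of the members' windows and 19.6% of all windows, the G form GCGTG in 52.9% and 32.4%, and CACGTG in 9.8% and 7.2%. The members' windows had a median GC content of 62.3%, against 52.7% for all windows, and both forms of the core contain CG. Presence of a core did not separate the members by their array results: at least 1 window held it for 10 of the 11 members with a window that passed the test in the averaged comparison below, and for 17 of the 17 tested members that did not. A match describes the letters in the window and is not evidence of binding.

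Array values are log2 signals after robust multi-array averaging (RMA), so that a difference of 1 is a factor of 2 on the scale of the processed signal. The single Tet2 row was at 9.92, 9.64 and 9.93 in Tet2-/- cells and 9.91, 9.80 and 9.93 in Tet2fl/fl cells at passage 10, with a difference of -0.05 there and -0.03 at passage 2 (limma, adjusted p = 0.921 and 0.952). It therefore did not separate the genotypes and did not check the labels. Arrays within a group correlated at 0.984 to 0.991. The sorted myeloid cells had the myeloid markers Mpo at 10.90 to 12.67 and Fcgr3 (CD16) at 10.57 to 11.13, with Itgam (CD11b) at 7.04 to 8.78. Not all immature myeloid markers were as high: Spi1 was at 7.81 to 8.16 and Cebpa at 7.88 to 9.18, overlapping the range of Itgam. Of the other genes listed as low for this sort, Ly6g was at 4.77 to 7.61 and Ly6c1 at 4.32 to 5.56. Ly6c2, on the same list, was high at 11.43 to 12.64. The mast cell and basophil genes Cpa3 (13.32 to 13.42) and Mcpt8 (12.94 to 13.12) were also high on every array. Others on that list were lower, among them Tpsab1 (5.48 to 7.96) and Fcer1a (7.36 to 10.84). Bulk RNA cannot tell fewer cells of a type from less RNA per cell.

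The members did not spread alike within the groups. Their values lay close together in Tet2-/- cells and wide apart in Tet2fl/fl cells, where the array of replicate 1 resembled Tet2-/- cells and those of replicates 2 and 3 were lower. The mean over the 30 members was 10.46, 10.32 and 10.28 in Tet2-/- cells and 10.32, 9.64 and 9.79 in Tet2fl/fl cells at passage 10 (replicates 1, 2 and 3). At passage 2 it was 10.35, 10.33 and 10.23 in Tet2-/- cells and 10.31, 10.06 and 9.87 in Tet2fl/fl cells. Both groups of Tet2fl/fl cells therefore held 1 array near the Tet2-/- level and 2 below it. The median SD of a member was 0.10 in Tet2-/- cells and 0.29 in Tet2fl/fl cells at passage 10, and 0.10 and 0.25 at passage 2, while over all genes tested it was 0.11 and 0.12 at passage 10, and 0.13 and 0.14 at passage 2. The SD was larger in Tet2fl/fl cells for 24 of the 30 members at passage 10 and 25 at passage 2, against 55.6% and 53.3% of all genes. Replicate 1 was the highest of the Tet2fl/fl arrays for 26 members at passage 10 and 23 at passage 2, against 31.2% and 34.8% of all genes. It was below the range of the Tet2-/- arrays for 11 members at passage 10 and 5 at passage 2, whereas replicate 2 was below it for 25 and 21 and replicate 3 for 25 and 22.

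**Figure D1:**
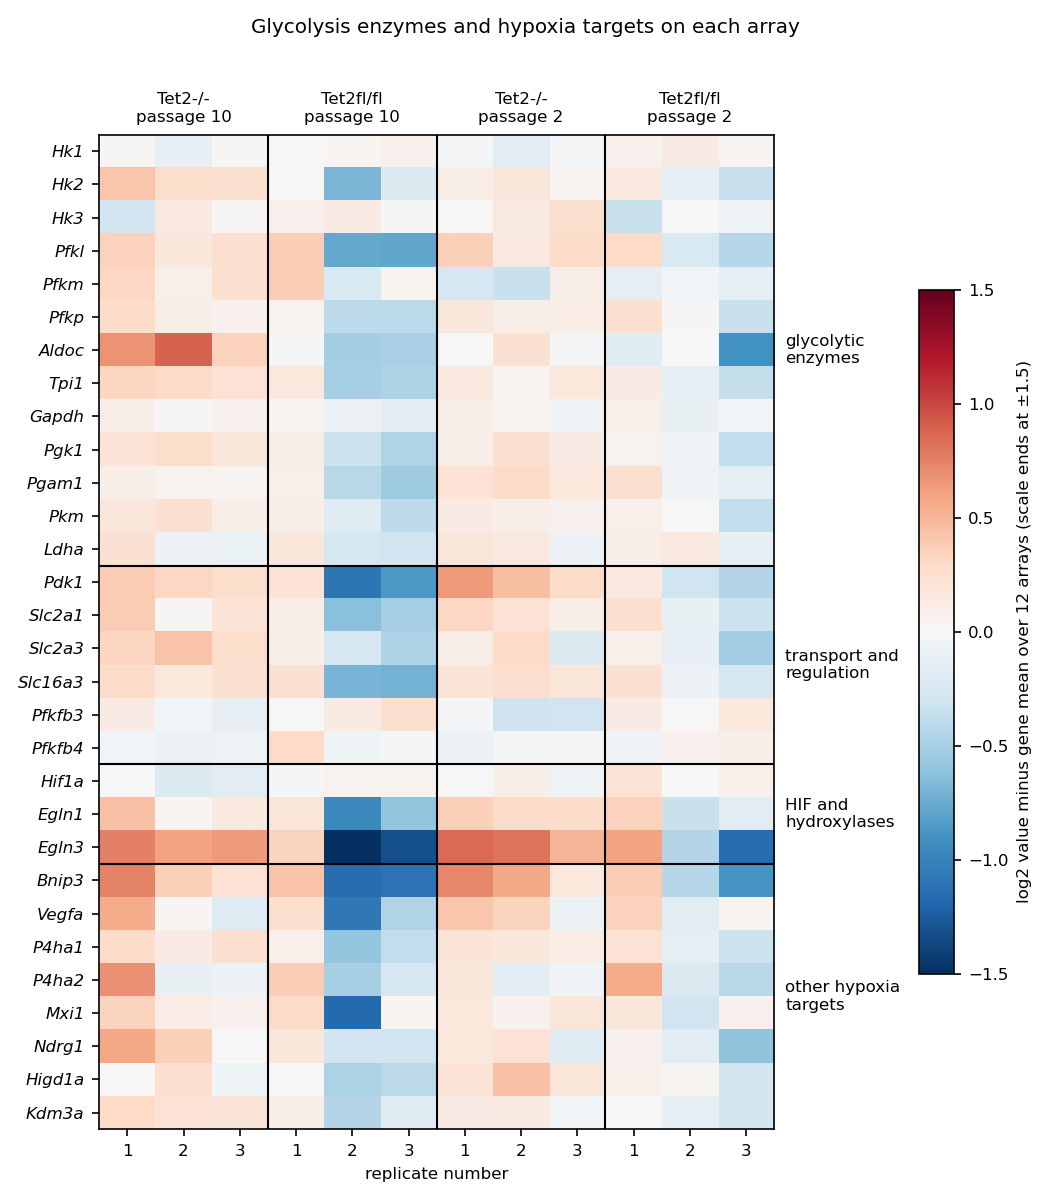
Log2 value of each of the 30 tested members (rows, by role) on each of the 12 arrays (columns, by group and replicate number), minus the gene's mean over the arrays; red is above and blue below that mean. The blue columns are replicates 2 and 3 of Tet2fl/fl cells at both passages, while replicate 1 of Tet2fl/fl cells is near the Tet2-/- arrays for most rows; Hk1, Hk3, Pfkm, Hif1a, Pfkfb3 and Pfkfb4 do not follow this pattern.

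**Figure D2:**
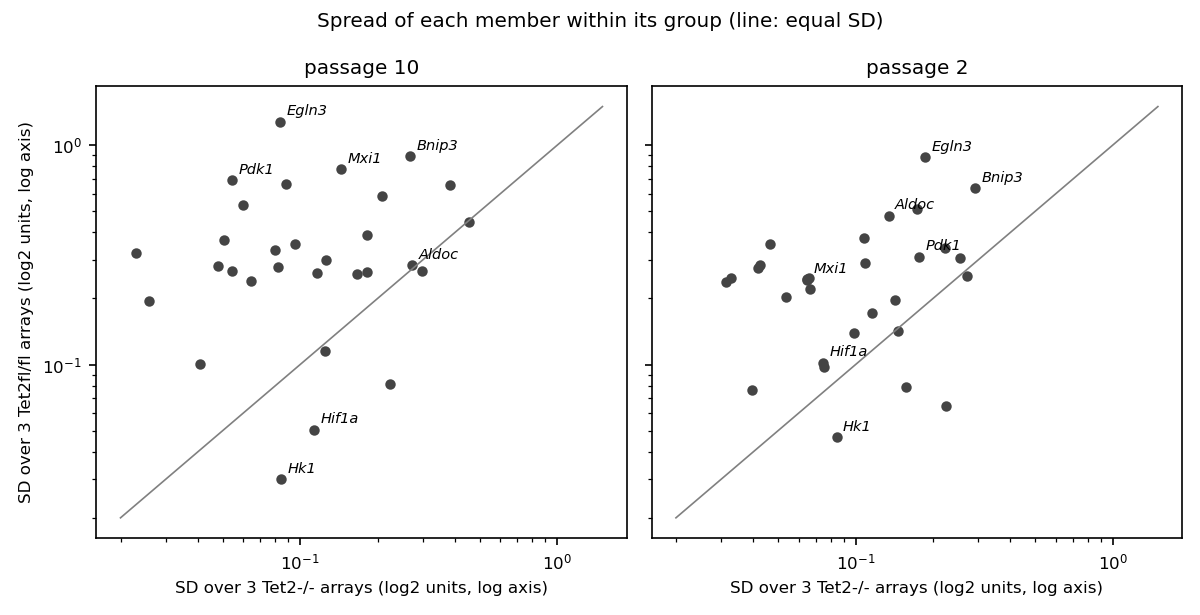
Standard deviation of each of the 30 tested members over 3 Tet2-/- arrays (horizontal, log axis) and 3 Tet2fl/fl arrays (vertical, log axis) at passage 10 (left) and passage 2 (right); the line marks equal spread and 7 members are named. At passage 10, 24 members lie above the line, and at passage 2, 25.

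The same replicate number deviated together in all groups over the whole array, so a second model with a term (a block) for that number is quoted wherever it moved a call. At passage 10 most members were higher in Tet2-/- than in Tet2fl/fl cells. The median difference was 0.45, against -0.01 over all genes, and 25 of 30 were positive, against 47.4% of all genes. No member passed without the block (limma, adjusted p under 0.05; 0.225% of all genes did), and the aldolase gene Aldoc passed with it, 1 member higher against 0.611% of all genes. At an unadjusted p under 0.05, 19 members were higher (4.59% of all genes) and 0 lower (6.01%). In 11 members every Tet2-/- array was above every Tet2fl/fl array (6.55% of all genes): Hk2, Pfkp, Aldoc, Tpi1, Pgk1, Pkm, Pdk1, Slc2a3, Egln3, P4ha1 and Kdm3a. The difference was positive in all 3 replicate numbers for 22 members (16.4% of all genes). Without Tet2fl/fl p10 replicate 1, 5 members passed without the block (Tpi1, Pfkl, Pdk1, Slc16a3 and Egln3; 0.297% of all genes were higher) and 11 with it (0.854%), and without replicate 1 in all groups 3 passed without the block (0.0712%) and 7 with it (0.433%). With the block, 2 passed when Tet2-/- p10 replicate 1 was left out (0.54% of all genes were higher). None passed when replicate 2 or 3 was left out of Tet2-/- p10 (0.089% of all genes in each case), of Tet2fl/fl p10 (0.0949% and 0.285%) or of all groups (0.00593% and 0.0771%).

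At passage 2 most members were again higher in Tet2-/- cells, by less, and for most members the arrays of the groups overlapped. The median difference was 0.22, against -0.00 over all genes, and 25 of the 30 were positive, against 49.2% of all genes. None passed (0.00593% of all genes did), nor did any with the block (0.409%). At an unadjusted p under 0.05, 2 were higher (4.29% of all genes) and 1 lower (5.65%). In 4 members all Tet2-/- arrays were above all Tet2fl/fl arrays (7.12%), Pdk1, Hk3, Pgk1 and Higd1a, and in 2 they were all below (8.17%), Hk1 and Pfkfb3. The median was 0.12 without Tet2fl/fl p2 replicate 3.

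The comparison averaged over both passages, with the same arrays pooled to 6 of each genotype, was added after the data had been seen. In it 13 members rose in Tet2-/- cells in the fit with the replicate block and 0 fell, against 2.16% and 3.25% of all genes. They were 4 of the 13 tested enzymes (Hk2, Aldoc, Tpi1 and Pgk1), 3 of the 6 transport and regulation genes (Pdk1, Slc2a1 and Slc2a3), both hydroxylases (Egln1 and Egln3) and 4 of the 8 other targets (Bnip3, P4ha1, Ndrg1 and Kdm3a). The fit takes the passages of a replicate number as separate arrays. The block does not remove a deviation that only 1 genotype of a replicate number shows at both passages. Tet2fl/fl replicate 1 lay high at both, so the p-values of this comparison can be too small. Without the block no member passed, while 1.72% of all genes did, and Aldoc came nearest (adjusted p = 0.0527). At an unadjusted p under 0.05 without the block, 19 members were higher (6.8% of all genes) and 1, Pfkfb3, was lower (9.33%). The median difference was 0.35, against -0.00 over all genes, and 26 of 30 were positive, against 48.6%. Without the block, 15 members passed without Tet2fl/fl p10 replicate 1 (1.36% of all genes were higher) and 7 without replicate 1 in all groups (0.427%), and with the block 19 passed without Tet2fl/fl p10 replicate 1 (2.57%). Leaving out certain other single arrays lowered the count with the block, and the share of all genes higher was lower in these fits as well. The count was 7 when replicate 1 of Tet2fl/fl p2 was left out (1.43% of all genes were higher) and 5 for replicate 2 or 3 of Tet2fl/fl p10 (1.11% and 1.39%). It was 3 for replicate 2 or 3 of Tet2-/- p2 (0.931% and 1.49%), for replicate 2 or 3 of Tet2fl/fl p2 (0.765% and 1.08%) and for replicate 2 of Tet2-/- p10 (1.14%), and 2 for replicate 3 of Tet2-/- p10 (0.801%). When replicate 2 or 3 was left out of all groups it was 0 (0.0771% and 0.255%). Counts with the block without replicate 1 of Tet2-/- cells at either passage, or of all groups, are not given here.

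**Figure D3:**
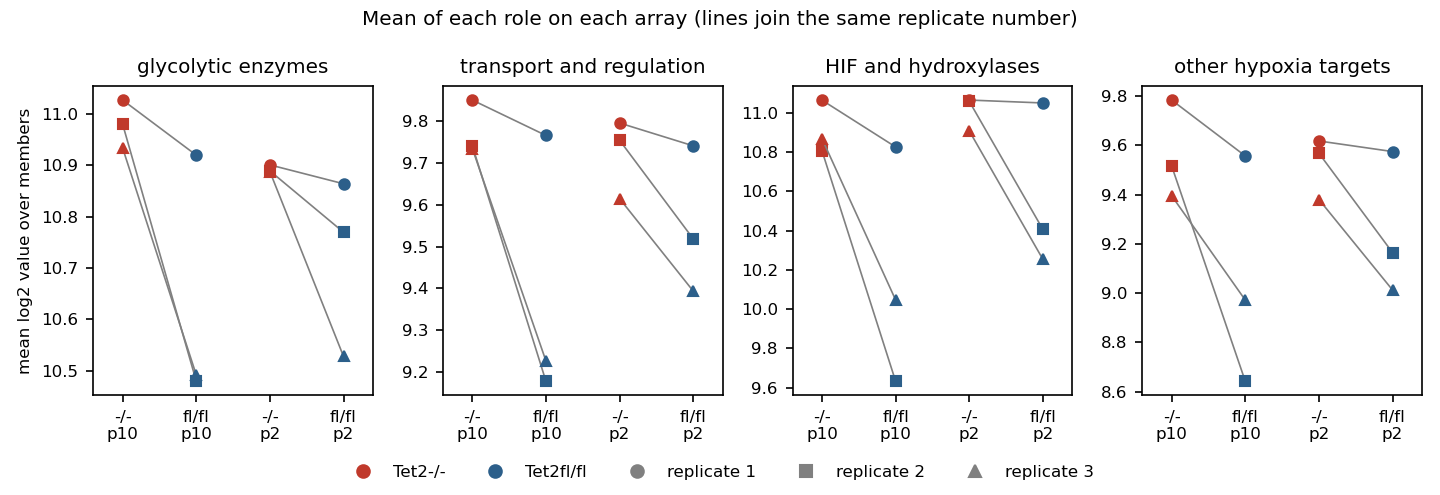
Mean log2 value over the tested members of each role on each array; in each panel Tet2-/- and Tet2fl/fl arrays stand side by side at passage 10 (left) and passage 2 (right), and a line joins arrays with the same replicate number. Replicates 2 and 3 are higher in Tet2-/- than in Tet2fl/fl cells in all 4 roles at both passages, and replicate 1 is nearly level at passage 2; vertical axes differ and do not start at 0.

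Some markers of mast cells, eosinophils and macrophages passed the test in the same comparison, while 1.06% of all genes were lower without the block and 3.25% with it. The mean over the 11 mast cell and basophil markers was 10.74 to 11.16 in Tet2-/- cells and 11.39 to 11.73 in Tet2fl/fl cells at passage 10, and 10.90 to 11.24 and 11.34 to 11.47 at passage 2. Of these, 0 rose and 2 fell in the averaged comparison without the block, Tpsab1 (difference -1.43, adjusted p = 0.0124) and the receptor gene Kit (-0.82, 0.022), and 5 fell with it. The mean over the 6 eosinophil markers tested of 8 was 7.08 to 8.58 in Tet2-/- cells and 7.24 to 9.17 in Tet2fl/fl cells at passage 10, and 7.41 to 7.60 and 8.87 to 9.13 at passage 2, with a median difference of -1.07 on average; none passed without the block and 2 fell with it. All 11 mast cell and basophil markers and the 6 eosinophil markers were above the filter on low signal, and Ear1 and Ear2 had no row of their own. The mean over the 8 monocyte and macrophage markers tested of 9 was 7.99 to 8.06 in Tet2-/- cells and 7.81 to 8.21 in Tet2fl/fl cells at passage 10, and 7.82 to 8.03 and 7.59 to 7.74 at passage 2, where the groups did not overlap. Their median difference was 0.06 at passage 10 (4 of 8 positive) and 0.21 at passage 2 (8 of 8). On average none passed without the block, and 1, Adgre1, rose with it (0.26, adjusted p = 0.0419), against 2.16% of all genes. With the block, 1 of the 4 megakaryocyte markers tested also rose (2.16% of all genes), and 1 of the 12 immature myeloid markers fell (3.25%). The part of these markers in the results on glycolysis and hypoxia genes was not tested.

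Among the enzymes, the widest differences at passage 10 were those of Aldoc, Pfkl, Hk2 and Tpi1. Aldoc encodes a fructose-bisphosphate aldolase. Its values were 10.53, 10.74 and 10.20 in Tet2-/- cells and 9.84, 9.33 and 9.38 in Tet2fl/fl cells at passage 10, and 9.86, 10.08 and 9.84 against 9.67, 9.86 and 8.95 at passage 2. The groups did not overlap at passage 10, and at passage 2 the highest Tet2fl/fl array lay within the Tet2-/- range. The difference at passage 10 was 0.97 ± 0.23 (standard error), a 1.96-fold higher signal, with an adjusted p of 0.117 without and 0.0326 with the block. On average it was 0.70 ± 0.16 (adjusted p = 0.0527 and 0.013), and at passage 2 it was 0.43 ± 0.23 (0.568 and 0.305).

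Hk2 encodes a hexokinase, which traps glucose in the cell as glucose 6-phosphate. At passage 10 it was at 10.56, 10.40 and 10.39 in Tet2-/- cells and 10.15, 9.46 and 9.94 in Tet2fl/fl cells, and at passage 2 at 10.25, 10.31 and 10.18 against 10.30, 10.01 and 9.80. Here too the groups were apart at passage 10 and overlapped at passage 2. The differences were 0.60 ± 0.16 at passage 10 and 0.21 ± 0.16 at passage 2, and the average of 0.41 ± 0.12 passed with the block (adjusted p = 0.103 without and 0.0444 with it). The other hexokinases did not follow this pattern. Hk1 was at 10.25, 10.11 and 10.26 in Tet2-/- cells and 10.34, 10.40 and 10.31 in Tet2fl/fl cells at passage 2, lower in Tet2-/- cells with no overlap, and its differences were -0.06 at passage 10 and -0.14 at passage 2. Hk3 was at 10.84, 11.28 and 11.14 in Tet2-/- cells and 11.20, 11.26 and 11.10 in Tet2fl/fl cells at passage 10 (-0.10 ± 0.12), and at 11.14, 11.26 and 11.37 against 10.80, 11.12 and 11.06 at passage 2 (0.26 ± 0.12). None of these Hk1 and Hk3 differences passed with or without the block.

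Tpi1, the triose phosphate isomerase, was at 12.10, 12.07 and 12.01 in Tet2-/- cells and 11.95, 11.29 and 11.32 in Tet2fl/fl cells at passage 10, and at 11.93, 11.83 and 11.95 against 11.91, 11.65 and 11.43 at passage 2. Pgk1, the phosphoglycerate kinase, which makes ATP, was at 12.76, 12.82 and 12.72 in Tet2-/- cells and 12.64, 12.23 and 12.10 in Tet2fl/fl cells at passage 10, and at 12.66, 12.78 and 12.68 against 12.61, 12.50 and 12.18 at passage 2. The Tet2-/- arrays of Pgk1 were above the Tet2fl/fl arrays at both passages, whereas those of Tpi1 overlapped at passage 2. On average Tpi1 differed by 0.39 ± 0.12 and Pgk1 by 0.36 ± 0.10 (adjusted p = 0.116 and 0.0876 without the block, 0.039 and 0.0361 with it). The phosphofructokinases split: Pfkl (differences of 0.64 at passage 10 and 0.38 at passage 2) and Pfkp (0.39 and 0.15) were positive at both passages, and those of Pfkm were 0.14 and -0.05. Among the enzymes of the lower pathway the differences at passage 10 were 0.35 for Pgam1, 0.33 for Pkm, 0.15 for Ldha and 0.13 for Gapdh. None of these 7 enzymes passed in a genotype comparison with or without the block. Gapdh and Pgam1 each had further rows, with differences at passage 10 of 0.13 and 0.14 for Gapdh and 0.13 for Pgam1; Gapdh and Pgam1 have near-identical processed copies in the mouse genome, so their rows are uncertain.

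**Figure D4:**
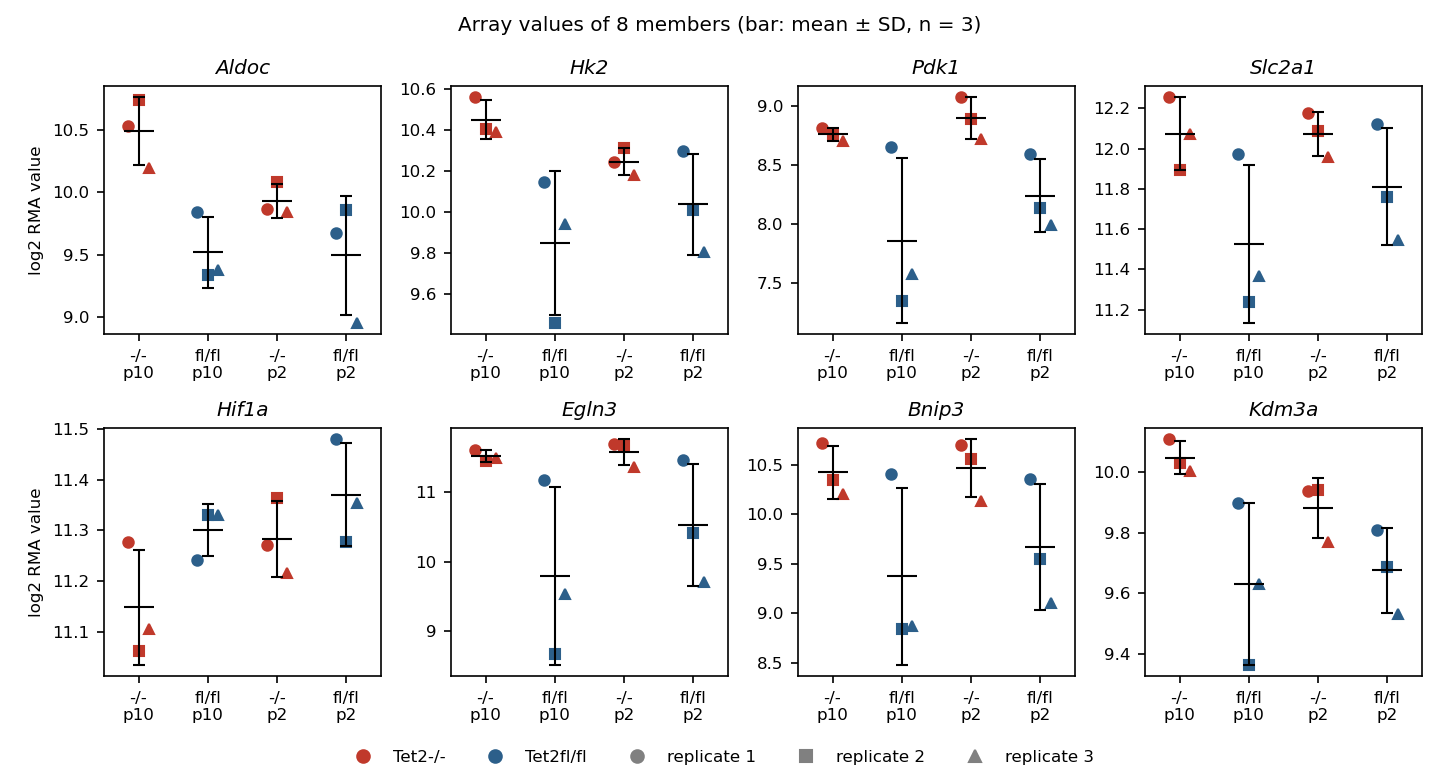
Log2 values of 8 members on each array (points; red Tet2-/-, blue Tet2fl/fl, with the shape giving the replicate number), by group, with the mean and SD of 3 arrays as bars; vertical axes differ between panels and do not start at 0. Except for Aldoc at passage 2 and Hif1a at passage 10, the blue circle of replicate 1 is the highest blue point at each passage; the red and blue points of Hif1a overlap at both passages.

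Among the transporters and regulators, the gene with the largest difference was Pdk1, a pyruvate dehydrogenase kinase that holds pyruvate back from the mitochondrial citric acid cycle. It was at 8.82, 8.75 and 8.71 in Tet2-/- cells and 8.65, 7.35 and 7.58 in Tet2fl/fl cells at passage 10, and at 9.07, 8.89 and 8.72 against 8.59, 8.14 and 8.0 at passage 2. All 6 Tet2-/- arrays were above all 6 Tet2fl/fl arrays, which was so for Pdk1 and Pgk1 alone among the 30 members (0.658% of all genes). The differences were 0.90 ± 0.28 and 0.65 ± 0.28, and the average, 0.77 ± 0.19, a 1.71-fold higher signal, passed with the block (adjusted p = 0.0708 without and 0.0153 with it).

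Slc2a1 and Slc2a3 encode the glucose transporters GLUT1 and GLUT3, and Slc16a3 the lactate exporter MCT4. Slc2a1 was at 12.26, 11.89 and 12.07 in Tet2-/- cells and 11.97, 11.24 and 11.37 in Tet2fl/fl cells at passage 10, and at 12.18, 12.09 and 11.96 against 12.12, 11.76 and 11.55 at passage 2. Slc2a3 was at 11.57, 11.67 and 11.51 in Tet2-/- cells and 11.34, 11.00 and 10.79 in Tet2fl/fl cells at passage 10, and at 11.34, 11.54 and 11.03 against 11.32, 11.12 and 10.72 at passage 2. Of these 4 comparisons only that of Slc2a3 at passage 10 had no overlap. On average Slc2a1 differed by 0.41 ± 0.14 and Slc2a3 by 0.40 ± 0.13, and both passed with the block (adjusted p = 0.161 and 0.142 without it, 0.0263 and 0.0273 with it). Slc16a3 was at 10.37, 10.25 and 10.32 in Tet2-/- cells and 10.32, 9.40 and 9.39 in Tet2fl/fl cells at passage 10, a difference of 0.61 ± 0.21 that did not pass (adjusted p = 0.315, 0.118 with the block). A second row of Slc2a1, at a mean of 6.17, differed by 0.42 at passage 10 and -0.06 at passage 2.

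Both bifunctional enzymes that set the level of fructose 2,6-bisphosphate, the activator of phosphofructokinase, differed from the rest of the role. Pfkfb3 was at 8.79, 8.63 and 8.54 in Tet2-/- cells and 8.68, 8.80 and 8.91 in Tet2fl/fl cells at passage 10 (-0.14 ± 0.10), and at 8.63, 8.35 and 8.37 against 8.80, 8.67 and 8.82 at passage 2 (-0.31 ± 0.10, adjusted p = 0.35). The passage 2 values of Tet2-/- cells were all below those of Tet2fl/fl cells, and the average difference of -0.23 did not pass with the block (adjusted p = 0.107). Pfkfb4 differed by -0.14 at passage 10 and -0.07 at passage 2.

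Of HIF and its hydroxylases, both hydroxylase genes rose on average with the block, and Hif1a, which encodes the alpha subunit, did not pass in any comparison. Egln3 (PHD3) was at 11.61, 11.45 and 11.49 in Tet2-/- cells and 11.18, 8.66 and 9.53 in Tet2fl/fl cells at passage 10, and at 11.70, 11.67 and 11.36 against 11.46, 10.41 and 9.71 at passage 2. The 6 Tet2-/- arrays lay between 11.36 and 11.70, while the 6 Tet2fl/fl arrays lay between 8.66 and 11.46. The difference of 1.73 ± 0.54 at passage 10 was the widest of the members (3.31-fold; adjusted p = 0.264 without and 0.0778 with the block), and the average was 1.39 ± 0.38 (0.0915 and 0.0267). Without Tet2fl/fl p10 replicate 1 it was 2.42 at passage 10 (adjusted p = 0.0417 without the block), and without Tet2fl/fl p10 replicate 2 it was 1.16 (0.523). Egln1 (PHD2) was at 10.30, 9.90 and 10.01 in Tet2-/- cells and 10.06, 8.90 and 9.28 in Tet2fl/fl cells at passage 10, and at 10.23, 10.15 and 10.15 against 10.21, 9.53 and 9.70 at passage 2, with an average difference of 0.51 ± 0.18 (adjusted p = 0.186 without and 0.0322 with the block).

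Hif1a was at 11.28, 11.06 and 11.11 in Tet2-/- cells and 11.24, 11.33 and 11.33 in Tet2fl/fl cells at passage 10, and at 11.27, 11.36 and 11.22 against 11.48, 11.28 and 11.35 at passage 2. The groups overlapped at both passages, and the differences were -0.15 ± 0.09 and -0.09 ± 0.09 (adjusted p = 0.58 and 0.783). A second, dimmer row named Hif1a, at a mean of 6.57, differed by 0.60 at passage 10 and 0.43 at passage 2 (adjusted p = 0.537 and 0.643 among all rows), and did not follow the first over the arrays. HIF protein was not measured.

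**Figure D5:**
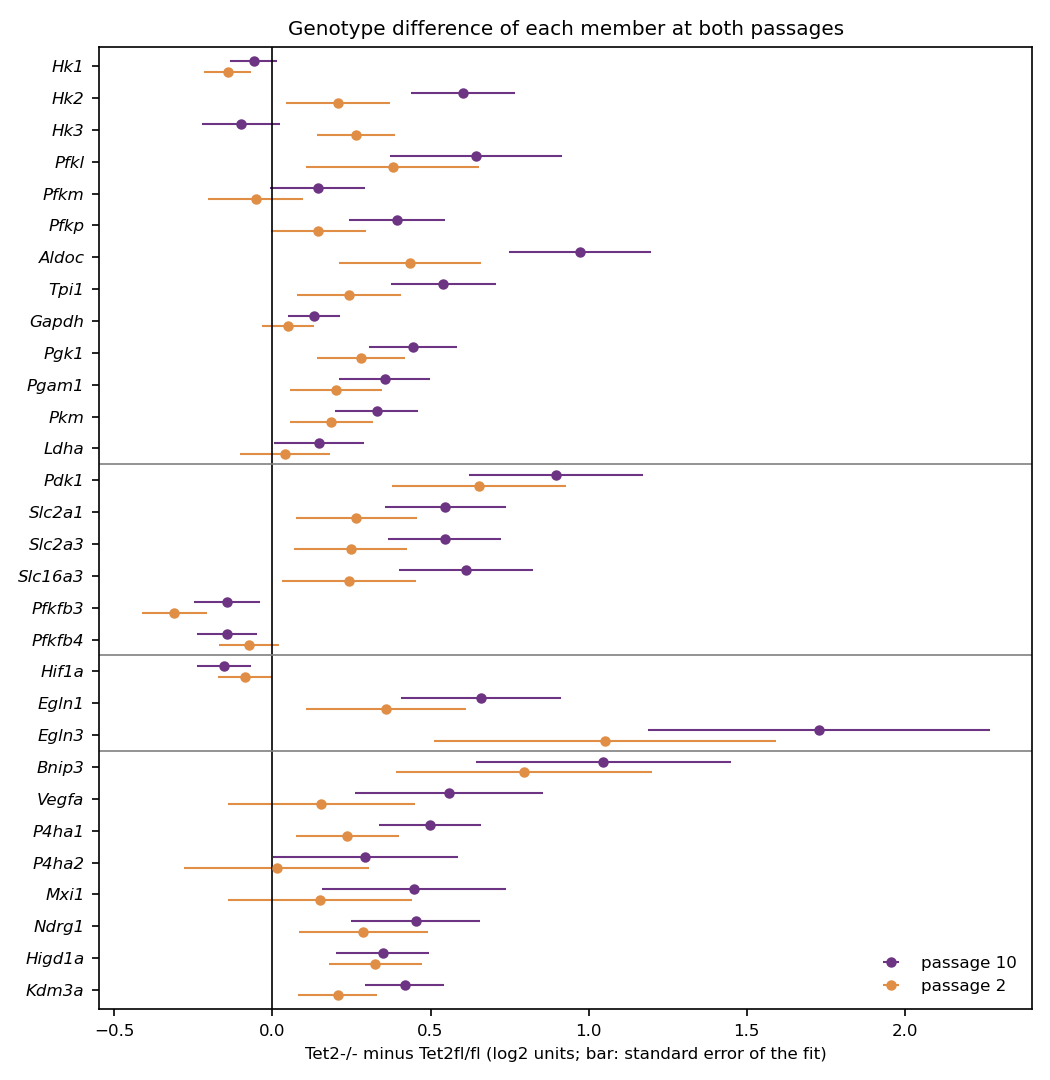
Difference in log2 value, Tet2-/- minus Tet2fl/fl, of each tested member at passage 10 (purple) and passage 2 (orange), with the standard error of the fit as bars; members are listed by role from enzymes (top) to other hypoxia targets (bottom). Differences at passage 10 range from -0.15 (Hif1a) to 1.73 (Egln3), and all 8 other hypoxia targets are to the right of 0 at both passages.

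All 8 other hypoxia targets were positive at both passages, with a median difference of 0.45 at passage 10 and 0.22 at passage 2. Bnip3, a mitochondrial protein that promotes mitophagy, was at 10.72, 10.34 and 10.20 in Tet2-/- cells and 10.41, 8.84 and 8.88 in Tet2fl/fl cells at passage 10, and at 10.70, 10.56 and 10.14 against 10.35, 9.55 and 9.10 at passage 2. In each passage only the replicate 1 array of Tet2fl/fl cells reached the Tet2-/- range. Its average difference was 0.92 ± 0.29, a 1.89-fold higher signal (adjusted p = 0.131 without and 0.0133 with the block).

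P4ha1, a subunit of the prolyl hydroxylase that modifies collagen, was at 10.89, 10.74 and 10.86 in Tet2-/- cells and 10.70, 10.05 and 10.26 in Tet2fl/fl cells at passage 10, and at 10.82, 10.79 and 10.73 against 10.84, 10.49 and 10.30 at passage 2. Kdm3a, a histone H3 lysine 9 demethylase, was at 10.11, 10.03 and 10.01 in Tet2-/- cells and 9.90, 9.36 and 9.63 in Tet2fl/fl cells at passage 10, and at 9.94, 9.94 and 9.77 against 9.81, 9.69 and 9.53 at passage 2. Both were apart at passage 10 and overlapped at passage 2. Ndrg1, a stress-responsive gene, was at 11.53, 11.30 and 10.94 in Tet2-/- cells and 11.11, 10.65 and 10.64 in Tet2fl/fl cells at passage 10, and at 11.10, 11.15 and 10.75 against 11.01, 10.79 and 10.34 at passage 2, with overlap at both. On average P4ha1 differed by 0.37 ± 0.11, Kdm3a by 0.31 ± 0.09 and Ndrg1 by 0.37 ± 0.14, with adjusted p of 0.133, 0.102 and 0.233 without the block and 0.0427, 0.0419 and 0.0217 with it.

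Higd1a, a mitochondrial inner membrane protein, was at 6.89, 7.13 and 6.81 in Tet2-/- cells and 6.89, 6.41 and 6.49 in Tet2fl/fl cells at passage 10 (0.35 ± 0.15), and at 7.08, 7.31 and 7.06 against 6.96, 6.92 and 6.60 at passage 2, apart by 0.32 ± 0.15. The angiogenic factor Vegfa was at 9.94, 9.41 and 9.19 in Tet2-/- cells and 9.62, 8.31 and 8.93 in Tet2fl/fl cells at passage 10 (0.56 ± 0.30), and the Myc antagonist Mxi1 at 9.22, 9.0 and 8.95 against 9.18, 7.73 and 8.92 (0.45 ± 0.29), its mean in Tet2fl/fl cells resting on replicate 2. P4ha2 differed by 0.29 at passage 10 and 0.01 at passage 2. None of these 4 passed in a genotype comparison with or without the block. Adm, the vasodilator adrenomedullin, was at 4.33 to 4.82 in Tet2-/- cells and 4.28 to 4.82 in Tet2fl/fl cells, around the filter value.

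Between the passages no member passed the test in either genotype, in comparisons that use the same arrays as those of genotype. In Tet2fl/fl cells the median difference, passage 10 minus passage 2, was -0.16, against 0.03 over all genes, and 6 of 30 members were positive, against 57.9% of all genes. None passed with or without the block (0% and 0.0415% of all genes), and none had an unadjusted p under 0.05 (5.72% of all genes higher and 4.5% lower), although 9 were lower in all 3 replicate numbers (14% of all genes). The smallest p-values belonged to Pgam1, at 11.29, 10.79 and 10.68 at passage 10 and 11.46, 11.16 and 11.07 at passage 2 (-0.31 ± 0.15, adjusted p = 0.502), Slc16a3 (-0.36, 0.572) and Vegfa (-0.50, 0.572). The median was -0.34 without Tet2fl/fl p10 replicate 1, -0.26 without Tet2fl/fl p2 replicate 3, -0.03 without Tet2fl/fl p2 replicate 1, and -0.05 and -0.07 without Tet2fl/fl p10 replicate 2 and 3.

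In Tet2-/- cells the median difference was 0.03, against 0.04 over all genes, with 17 of 30 members positive, against 57.6% of all genes. No member passed with or without the block, while 2.98% and 7.94% of all genes did, and 2 had an unadjusted p under 0.05, both higher at passage 10 (10.8% of all genes). These were Pfkm, at 8.53, 8.28 and 8.45 at passage 10 and 7.96, 7.88 and 8.30 at passage 2 (0.37 ± 0.15, adjusted p = 0.178), and Aldoc, whose values at passage 10 were all above those at passage 2 (0.56 ± 0.23, 0.179). Pfkfb3 came next (0.20 ± 0.10, 0.288).

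The difference between the genotype effects at passage 10 and passage 2, the interaction, had a median of 0.25 over the members, against -0.01 over all genes, and 27 of 30 were positive, against 48.6%. No member passed with or without the block (0% and 0.00593% of all genes), and none had an unadjusted p under 0.05 (1.67% of all genes positive and 1.55% negative). The lowest p-values here were those of Hk3 (-0.36 ± 0.17), Hk2 (0.40 ± 0.23) and Aldoc (0.54 ± 0.32), each with an adjusted p of 0.999. The wider genotype difference at passage 10 was therefore not shown to differ from that at passage 2. The median was 0.086 without Tet2fl/fl p2 replicate 1 or Tet2fl/fl p10 replicate 2, 0.16 without Tet2-/- p2 replicate 3 and 0.42 without Tet2fl/fl p10 replicate 1.

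Over the 12 arrays most members followed each other, as a description in which the points share groups and replicate numbers. The correlation of a member with the mean of the other members was 0.980 for Bnip3, 0.979 for P4ha1, 0.976 for Egln3 and 0.974 for Slc2a1, and 0.719 or more for 24 of the 30. The exceptions were Pfkm (0.301), Pfkfb4 (-0.0588), Hk3 (-0.214), Hif1a (-0.291), Hk1 (-0.421) and Pfkfb3 (-0.512). Among the 8 other hypoxia targets the lowest was Mxi1 (0.719). Among the 13 enzymes, 10 were between Aldoc (0.742) and Pfkl (0.965), and Pfkm, Hk3 and Hk1 were below them. Of the genes outside the set, the 8 nearest to its mean over the 12 arrays were Clybl (0.982), Rnf145 (0.972), Zfp292 (0.959), Map2k1 (0.958), Kcnq5 (0.957), Mgarp (0.955), Fam162a (0.951) and Zfp395 (0.948).

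Other genes of the same pathways, listed from textbook knowledge, had smaller median differences, which were not tested against those of the members. Their counts on average over both passages stand beside 0.658% of all genes higher and 1.06% lower without the block, 2.16% and 3.25% with it, and 48.6% positive. Of 36 further genes of glycolysis and glucose use 28 were tested, with a median difference of 0.03 on average over both passages. None passed without the block, and with it 3 rose and 2 fell, among them the glycogen synthesis gene Ugp2 (0.24, adjusted p = 0.0454) and the pyruvate dehydrogenase kinase gene Pdk3 (0.26, 0.043), which rose, and the monocarboxylate transporter gene Slc16a7 (-0.79, 0.0166), which fell. Of 38 further HIF factors and hypoxia targets 34 were tested, with a median of 0.12 and 27 positive. None passed without the block, and with it 6 rose and 0 fell, including Ddit4, an inhibitor of mTORC1 signalling (0.49, adjusted p = 0.0313), Fam162a (0.76, 0.0238) and the adenylate kinase gene Ak4 (0.82, 0.0355). In the pyruvate dehydrogenase and citric acid cycle list (23 of 24 tested) the median was -0.03, 0 passed without the block, and 1, Pdhx, fell with it (-0.23, adjusted p = 0.0481). None of 5 pentose phosphate genes tested passed (median -0.01). Of 21 Myc and ribosome biogenesis genes 0 passed without the block and 1 fell with it, and of 16 cell division genes 1, Mcm3, rose with or without it (0.34, adjusted p = 0.0486 without). In the passage comparison of Tet2-/- cells 2 of the further hypoxia targets and 1 of the further glucose genes rose without the block, against 1.25% of all genes: Ddit4 (1.12, adjusted p = 0.0224), Rora (0.75, 0.0314) and Pdk2 (0.65, 0.0438).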

How the data were processed

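RNA from 12 sorted cell samples (4 groups of 3) was hybridised to Affymetrix Mouse Gene ST 2.0 arrays. The deposited values are log2 signals, made by the authors with RMA in Affymetrix Power Tools per the submitters' processing notes, with no version stated in those notes. Of 41345 rows, 23521 carried 1 gene symbol, 1814 several and 16010 none in the platform annotation. Rows with a mean log2 value below 4.70 (the 30th percentile) were left out, and each of 16860 genes was taken from its highest row. One linear model over the 4 groups was fitted with limma 3.58.1 in R 4.3.3 (8 residual and 3.33 prior degrees of freedom). Its p-values had Benjamini-Hochberg adjustment over all genes, with a threshold of 0.05. The model was tested first on simulated data with independent noise on each array. That noise held no deviation shared by a replicate number, so the simulation did not check p-values under such sharing. Arrays are 3 per group, which limits the precision.

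Replicate numbers come from the labels. Deviations from the group means correlated at 0.201 to 0.517 where 2 arrays of different groups shared a number (18 pairs) and at -0.369 to 0.0532 where they did not (36 pairs), so a second model had the replicate number as a block. All p-values are two-sided and come from the model without the block or, where named, the model with it; those of a gene's second rows are from the same models over 28941 rows. If replicates are not separate cultures, p-values measure technical spread only.

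The members, the gene lists and the averaged comparison were chosen with earlier results of these data known. Genes named were those passing in any comparison with or without the block, those with the smallest p-values in each comparison, and Hif1a, Slc2a1, Hk2, Pdk1 and Aldoc. Alternatives were equal array medians, quantile normalization, other filters, array weights, the mean of a gene's rows and leaving out arrays or replicate numbers.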

Additional observations from a re-analysis of the deposited data

How the results depend on the processing

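No member was past the threshold in the fit without the block, and none of the 54 member differences followed through the alternatives changed direction. These 54 were picked from the same data for small p-values or calls. A stable direction was therefore likely beforehand and says nothing about the other member differences. The median over members for passage in Tet2-/- cells changed sign without Tet2-/- p10 replicate 1 and without replicate 1 in all groups (-0.044 and -0.012, against 0.03). Without the block, the number of members past the threshold at passage 10 was 0, with 1 in the fit with the block and 0 to 5 when an array or a replicate number was left out. In the averaged comparison it was 0, with 13 with the block, 9 with array weights, 1 with a filter at the 50th percentile and 0 to 15 when arrays were left out. In the passage comparison of Tet2-/- cells it was 0, with 1 (Pfkm) under array weights. The block changed no other call of a member. The median over members in Tet2-/- cells with passage was 0.03, with 0.067 at equal array medians and -0.044 to 0.051 when arrays were left out, and the median interaction of 0.25 had a range of 0.086 to 0.42 when arrays were left out. With the block, the 1 member at passage 10 became 2 under quantile normalization, 4 with a filter at the 50th percentile, 12 with array weights, 2 with the mean of a gene's rows and 0, 2 or 11 without 1 array and 0 or 7 without a replicate number. The 13 of the averaged comparison became 8 with no filter, 2, 3, 5, 7 or 19 without certain single arrays, and 0 without replicate number 2 or 3. The shares of all genes called under array weights, quantile normalization, other filters and the mean of a gene's rows are not given here. The member counts under these alternatives are therefore not read as results about the members. Alternatives of the fit with the block, other than the block itself, were chosen after seeing the data. Of the alternative counts and medians, 274 stayed within 1.5 times of the count or 1 SD of the median and 40 did not. A count of 0 in both fits was taken as unchanged. A fit on the compared arrays alone could not be made for the averaged comparison and the interaction, which use all 12.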

Other observations

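Several members had more than 1 row, and the rows of a gene did not always agree. The dimmer Hif1a row differed by 0.51 ± 0.17 between Tet2-/- and Tet2fl/fl cells on average over both passages (limma over 28941 rows, adjusted p = 0.223 without and 0.178 with the replicate block), while the brighter row used above differed by -0.12. Their correlation over the 12 arrays was -0.0999. The third Gapdh row correlated at 0.466 with the row used, against 0.992 for the second. The second Mxi1 row differed by 0.40 at passage 10 and 0.02 at passage 2, against 0.45 and 0.15 for the row used.

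Adjustment over all 28941 rows in place of 16860 genes, with the block, gave Pdk1 an adjusted p of 0.0447, Ndrg1 0.0578 and Slc2a1 0.0662 in the averaged comparison.

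Of the 8 genes outside the set that lay nearest to its mean over the arrays, Clybl, which encodes a mitochondrial lyase, differed by 0.78 on average (adjusted p = 0.0876 without and 0.00804 with the block). It was chosen by its likeness to the members, so its difference is a description.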
